A study of Mus musculus with 3 samples.

Results

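The comparison described here set one type of mitral cell, M2, against one type of tufted cell, T1, among projection neurons of the mouse olfactory bulb (OB). Its members were the 1149 nuclei that the deposited annotation puts in projection neuron subcluster 1 (M2) and the 2128 in subcluster 0 (T1), together 3277 of 31703 nuclei and of the 7504 that carry a subcluster number. The annotation gives numbers without names, so the names M2 and T1 stand for M2-like and T1-like nuclei and were checked below against markers. Nuclei came from the OB of 3 adult C57Bl/6 mice. According to the study's methods the mice were male, and each had received a retrogradely transported adeno-associated virus carrying nuclear GFP (rAAV-retro-CAG-H2B-GFP) in the anterior olfactory nucleus and the piriform cortex. The promoter of this virus is not specific for a cell type, so that the label depends on an axon, or on spread of the virus, reaching the injected areas. Fluorescent nuclei were sorted, and the RNA of each mouse was counted in 1 droplet-based library. Both groups therefore carried the same virus and came from the same animals, with no treatment or genotype to separate them.

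Mitral and tufted cells are the output neurons of the OB. Both extend an apical dendrite into a glomerulus, where they receive input from olfactory sensory neurons, and both release glutamate onto dendrites of inhibitory granule cells and onto cortical targets. Mitral cell bodies line the mitral cell layer and tufted cell bodies lie more superficially in the external plexiform layer, and the groups are known to differ in excitability, lateral dendrites and the reach of their axons. The genes below are ordered by these roles, from marker and regulatory genes through channels, receptors and peptides to adhesion, guidance and matrix genes.

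M2 nuclei numbered 388, 457 and 304 in replicates 1, 2 and 3, where a replicate is 1 mouse, and T1 nuclei 522, 1059 and 547. Summed over nuclei, M2 libraries held 8392662, 9518786 and 7464540 unique molecular identifiers (UMIs), which count RNA molecules rather than reads, and T1 libraries 8561548, 16961469 and 10403928. The median M2 nucleus held 21030.5, 19594 and 23455 UMIs, against 15743.5, 14652 and 18071 in T1. M2 nuclei were thus the deeper in every mouse, by a ratio of 1.32 ± 0.0223 (mean ± SD, n = 3 mice). With 3 pairs an exact permutation test cannot go below 0.25, and no p is given for this ratio. Median gene numbers were 4518.5, 4550 and 4637.5 in M2 and 3929.5, 3886 and 4148 in T1. All levels below are UMIs per 1000000 UMIs of a summed library (CPM), so that they compare shares of RNA and not RNA per nucleus. Across mice 2, 0 and 1 barcodes of these nuclei were shared between replicates 1 and 2, 1 and 3, and 2 and 3.

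Markers of the types went with the names. All 11 genes that the study lists for M2 were higher in M2 and all 9 that it lists for T1 were higher in T1, with summed levels of 2746 to 2992 CPM in the M2 libraries against 241 to 276 in T1 for the first list, and of 180 to 275 in M2 against 1780 to 1852 in T1 for the other. The study chose both lists on these nuclei, so that their direction is not independent evidence. The pan-mitral genes Fam19a2 and Tnfaip8 were higher in M2 and the pan-tufted genes Zbtb20 and Astn2 in T1, with the same reservation. Of 7 tested markers of OB projection neurons, only Tbx21 was called, at 96.3, 91.4 and 73 CPM in M2 replicates 1, 2 and 3 and 38.1, 34.8 and 29.99 CPM in T1 (log2 fold change 1.38, SE 0.07, adjusted p 5.1e-13). Tbx21 is a T-box transcription factor long used to mark mitral and tufted cells, and all M2 libraries lay above all T1 libraries. Slc17a7, the vesicular glutamate transporter of cortical-type excitatory neurons, was at 296 ± 21 CPM in M2 and 414 ± 76.1 CPM in T1 (mean ± SD, n = 3) and did not reach the fold required for a call. Of the 7 markers 2 alone had a positive log2 fold change (median -0.43), 4 had an adjusted p under 0.05 on the T1 side, and their sum was 786 to 809.6 CPM in M2 and 984 to 1226 CPM in T1.

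Nuclei of both kinds were not uniform. In 99 of 1149 M2 nuclei (8.62%) the T1 list had more UMIs than the M2 list, and in 111 of 2128 T1 nuclei (5.22%) the M2 list had more than the T1 list. Those M2 nuclei held a median of 23450 UMIs against 20781 for M2 as a whole, and those T1 nuclei 12201 against 15749.5 for T1. At the coarser level of clustering 1122 M2 nuclei lay in cluster 5 and 2034 T1 nuclei in cluster 2, while 24 M2 nuclei lay in cluster 2 and 84 T1 nuclei in cluster 5. With these and the few nuclei in other clusters left out, 799 genes in place of 779 were higher in M2 and 632 in place of 620 in T1. Markers of inhibitory neurons, the most numerous cells of the OB, summed to 145 to 321 CPM in M2 and 168 to 352 CPM in T1, against a mean of 7547 CPM in the largest inhibitory cluster. None of the 11 tested was called in either direction by edgeR or DESeq2, and 1 had an unadjusted p under 0.05 in edgeR. Oligodendrocyte markers summed to 75.3 to 88.6 CPM in M2 and 109 to 141 CPM in T1, with 0 of 6 called by edgeR or DESeq2 and 1 at an unadjusted p under 0.05. Astrocyte markers went both ways, since Slc1a2, a glutamate transporter, was higher in M2 (56 ± 5.09 against 15.3 ± 1.80 CPM) and Aldh1l1, a folate enzyme, higher in T1 (1.36 ± 1.02 against 6.86 ± 1.86 CPM), while Gfap and Gja1 were at 0.996 and 1.98 CPM in M2 and 1.44 and 2.60 CPM in T1. Whether RNA of such other cells has a part in the differences below was not tested.

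The main question was which genes separate the M2 and T1 types when each mouse counts once. Of 14735 tested genes, 779 were higher in M2 (5.29% of those tested) and 620 higher in T1 (4.21%), 1399 in all (9.49%), with calls requiring a log2 fold change beyond -1 or 1 and an adjusted p below 0.05 (edgeR quasi-likelihood test with the mouse as a block, Benjamini-Hochberg adjustment). Nuclei had been clustered on the same counts, so these p-values describe how genes differ between subclusters and are no test of whether there are such types. For 745 of the 779 genes the 3 M2 libraries all lay above the 3 T1 libraries, and for 601 of the 620 the reverse held. Without regard to fold, 5109 genes (34.7%) had an adjusted p under 0.05, 2500 higher in M2 and 2609 in T1. Large differences were more often on the M2 side by count, with 256 genes past a log2 fold change of 2, 93 past 3 and 32 past 4 in M2 against 173, 53 and 10 in T1. The genes called higher in M2 took 11.2% of UMIs in M2 and 3.54% in T1, and those called higher in T1 took 1.78% in M2 and 6.32% in T1. Most genes differed little, and 90.3% of those tested had an absolute log2 fold change under 1, around a median of -0.01.

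**Figure D1:**
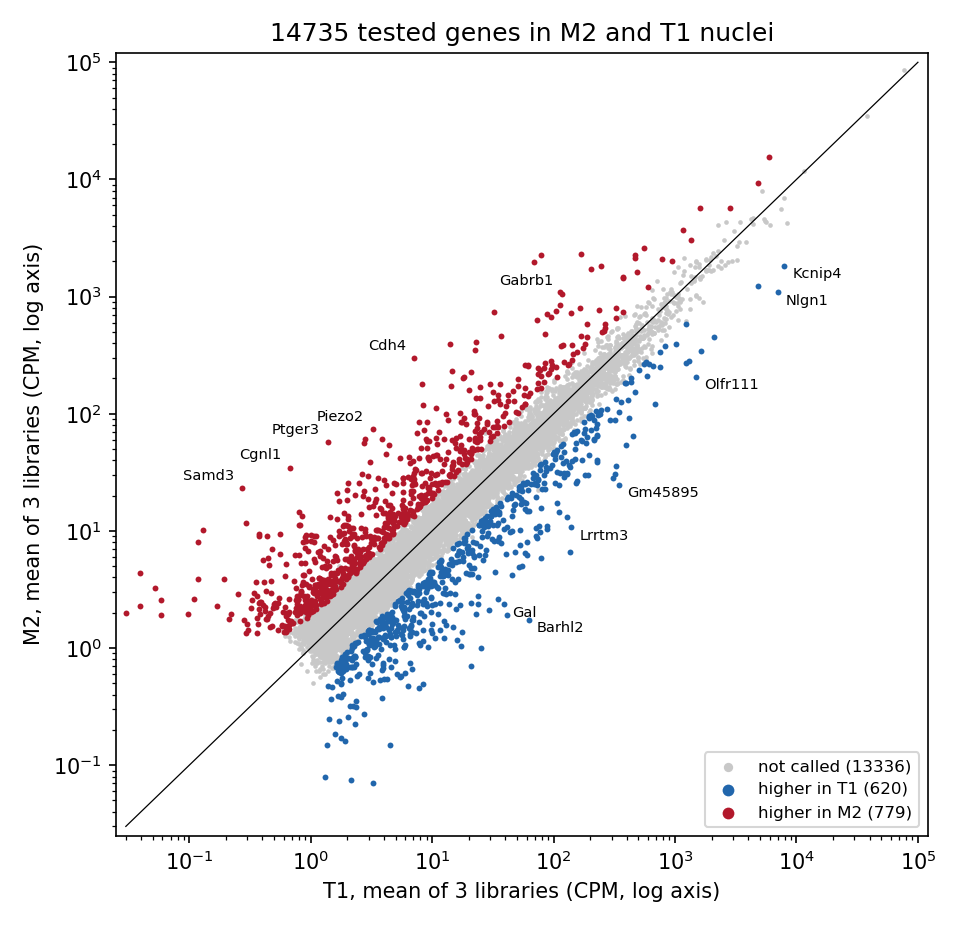
Mean level of each tested gene in T1 (x axis) and M2 (y axis), in CPM on log axes, each the mean of 3 libraries, with means under 0.03 drawn at 0.03. Red points are the 779 genes called higher in M2 and blue points the 620 called higher in T1, grey points were not called, and most points lie along the diagonal of equal level.

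The 12 leading genes of each direction were the called genes with the largest fold change, no overlap between libraries and at least 10 CPM in the higher subcluster, out of 398 eligible in M2 and 324 in T1. On the M2 side Samd3, a sterile alpha motif protein (gene ENSMUSG00000051354, chromosome 10, 26229707 to 26272172, plus strand), came first. It stood at 14.8, 25.3 and 29.6 CPM in M2 and at 0, 0.531 and 0.288 CPM in T1 (log2 fold change 6.17, SE 0.27, adjusted p 2.4e-14), or 586 UMIs in all M2 nuclei against 12 in all T1 nuclei, and its log2 fold change was 7.11 without replicate 2. Npr3, the clearance receptor for natriuretic peptides (ENSMUSG00000022206, chromosome 15, 11839896 to 11907287, minus strand), was at 13.2, 8.51 and 8.98 CPM in M2 and 0.117, 0.177 and 0.0961 CPM in T1 (log2 fold change 6.06, SE 0.37, adjusted p 6.3e-12). Cgnl1, a protein of cell junctions (ENSMUSG00000032232, chromosome 9, 71626509 to 71771602, minus strand), stood at 39.8, 32.4 and 31.9 and 0.584, 0.766 and 0.673 CPM (log2 fold change 5.63, SE 0.19, adjusted p 2.1e-16). For each of these genes the T1 libraries lay at or under 1 CPM. Ptger3, a receptor for prostaglandin E (ENSMUSG00000040016, chromosome 3, 157566892 to 157645888, plus strand), followed at 51.6, 50.4 and 69.1 CPM in M2 and 1.99, 1.41 and 0.769 CPM in T1 (log2 fold change 5.38, SE 0.17, adjusted p 4.6e-16). Piezo2, a mechanically gated cation channel known from touch receptors (ENSMUSG00000041482, chromosome 18, 63010213 to 63387183, minus strand), stood at 63.5, 70.2 and 88.7 and 3.62, 3.95 and 2.11 CPM (log2 fold change 4.51, SE 0.16, adjusted p 3.3e-12), and is one of the study's own M2 genes. After each nucleus was thinned to 5000 UMIs, a Piezo2 UMI was found in 23.3% of M2 and 1.24% of T1 nuclei (means of 3 mice), with 0.667% in the largest inhibitory cluster as background. The log2 fold change of Piezo2 was 5.25 when only nuclei of the most common coarse cluster were kept.

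Genes of higher level were among the leading genes too. Pcdh9, a protocadherin (ENSMUSG00000055421, chromosome 14, 93013410 to 93890679, minus strand), was at 2315, 2233 and 2229 CPM in M2 and 86.4, 75.3 and 72.5 CPM in T1 (log2 fold change 4.90, SE 0.06, adjusted p 1.0e-24). Inhibitory cluster 0 held 2009 CPM of Pcdh9, so that T1 nuclei were the low group here. Cdh4, or R-cadherin (ENSMUSG00000000305, chromosome 2, 179442431 to 179899373, plus strand), was at 288, 273 and 332 CPM in M2 and 4.20, 12 and 5.19 CPM in T1 (log2 fold change 5.28, SE 0.41, adjusted p 0.012). Nell1, a secreted protein with EGF-type repeats (ENSMUSG00000055409, chromosome 7, 49974864 to 50866608, plus strand), was at 772, 711 and 725 CPM in M2 and 46.7, 24.6 and 25.9 CPM in T1 (log2 fold change 4.60, SE 0.22, adjusted p 0.0019). Without replicate 3 the calls of Cdh4 and Nell1 were lost, at adjusted p 0.092 and 0.054 and log2 fold changes of 5.02 and 4.49, and without replicate 2 that of Cdh4 was 6.09. The remaining leading genes of M2 were Samd12 (392 ± 13.9 against 13.9 ± 2.59 CPM, log2 fold change 4.81), the homeobox gene Dbx2 (11.8 ± 5.85 against 0.293 ± 0.255 CPM, 5.18) and the long noncoding RNA Gm32647 (178 ± 37.9 against 8.21 ± 0.584 CPM, 4.45). The log2 fold change of Dbx2 was 5.92 without replicate 2 and 4.30 without replicate 3. Reads were counted by a method whose strand rule is not given in the sources used here, and Samd12, Nell1 and Gm32647 overlap a gene on the other strand.

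On the T1 side the homeobox transcription factor Barhl2 (ENSMUSG00000034384, chromosome 5, 106452523 to 106458166, minus strand) led, at 2.03, 2.42 and 0.804 CPM in M2 and 63.5, 60.1 and 63.4 CPM in T1 (log2 fold change -5.06, SE 0.16, adjusted p 1.1e-16). A Barhl2 UMI was found in 24.3% of T1 nuclei and 0.921% of M2 nuclei at 5000 UMIs each, with 0.200% in inhibitory cluster 0. Vdr, the nuclear receptor for vitamin D (ENSMUSG00000022479, chromosome 15, 97854425 to 97910630, minus strand), was at 1.79, 2.31 and 1.61 CPM in M2 and 42.7, 37.3 and 44.3 CPM in T1 (log2 fold change -4.37, SE 0.16, adjusted p 8.1e-16). Both belong to the study's T1 genes, and so do Fam84b (1.04 ± 0.377 CPM in M2, 17.2 ± 3.89 CPM in T1) and Cacna1g, described with the channels. Gal, the precursor of the neuropeptide galanin (ENSMUSG00000024907, chromosome 19, 3409915 to 3414544, minus strand), stood at 2.26, 2.94 and 1.88 CPM in M2 and 53.3, 28.8 and 35.1 CPM in T1 (log2 fold change -3.95, SE 0.17, adjusted p 2.8e-14). Ube2u, a member of the ubiquitin-conjugating enzymes (ENSMUSG00000069733, chromosome 4, 100478849 to 100550147, plus strand), stood at 0.715, 1.26 and 0.134 and 17.6, 28.2 and 17.1 CPM (log2 fold change -4.80, SE 0.25, adjusted p 3.4e-13). Vwc2l, a secreted protein with a von Willebrand factor C domain (ENSMUSG00000045648, chromosome 1, 70725715 to 70885397, plus strand), stood at 0.596, 1.47 and 0.938 and 26.3, 29.7 and 20.4 CPM (log2 fold change -4.60, SE 0.21, adjusted p 3.7e-14). In all of these the highest M2 library stayed below the lowest T1 library by a wide margin. With nuclei thinned to 5000 UMIs, the log2 fold change of Vwc2l was -6.06 and that of Vdr -5.13.

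Long noncoding RNAs were 165 of the 779 genes higher in M2 and 140 of the 620 higher in T1, and 2004 of 14724 tested genes with a position (13.6%). Gm45895 (ENSMUSG00000110634, chromosome 8, 95910574 to 95934042, plus strand) was at 24.2, 25.8 and 24.4 CPM in M2 and 351, 313 and 366 CPM in T1 (log2 fold change -3.75, SE 0.07, adjusted p 2.7e-21), and its UMIs were found in 70.7% of T1 nuclei and 7.70% of M2 nuclei thinned to 5000 UMIs. Gm32122 (ENSMUSG00000110633, chromosome 8, 96371727 to 96403862, minus strand) was at 1.37 ± 0.401 CPM in M2 and 17.6 ± 3.06 CPM in T1 (log2 fold change -3.67). The gene Gm49116 (ENSMUSG00000115782, chromosome 15, 14459376 to 14480986, plus strand) stood at 2.62, 11.9 and 5.49 and 109, 156 and 144 CPM (log2 fold change -4.30, SE 0.29, adjusted p 0.0014), and its adjusted p was 0.075 without replicate 3 and its log2 fold change -4.93 without replicate 2. A830092H15Rik lies on the strand opposite Nlgn1, which encodes a postsynaptic adhesion protein, and both were higher in T1. A830092H15Rik was at 1.79, 2.84 and 3.22 CPM in M2 and 21.6, 34.1 and 48.4 CPM in T1 (log2 fold change -3.67, SE 0.15, adjusted p 7.3e-15). Nlgn1, chosen after its values were seen, was at 877, 1373 and 1029 CPM in M2 and 6639, 7462 and 6929 CPM in T1 (log2 fold change -2.67, SE 0.08, adjusted p 7.9e-09). Lrrtm3, a synaptic adhesion protein whose gene lies within Ctnna3 on the other strand, was at 6.91, 20.2 and 5.09 CPM in M2 and 152, 155 and 114 CPM in T1 (log2 fold change -3.67, SE 0.43, adjusted p 0.025). The Lrrtm3 call was lost without replicate 3 (adjusted p 0.14) and without the filter on low counts (adjusted p 0.065), and its log2 fold change was -4.42 without replicate 2. Reads of overlapping genes cannot be told apart where strand was not used. Of all called genes, 308 of the 779 in M2 and 225 of the 620 in T1 overlap a gene on the other strand, against 5922 of 14724 tested genes (40.2%).

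**Figure D2:**
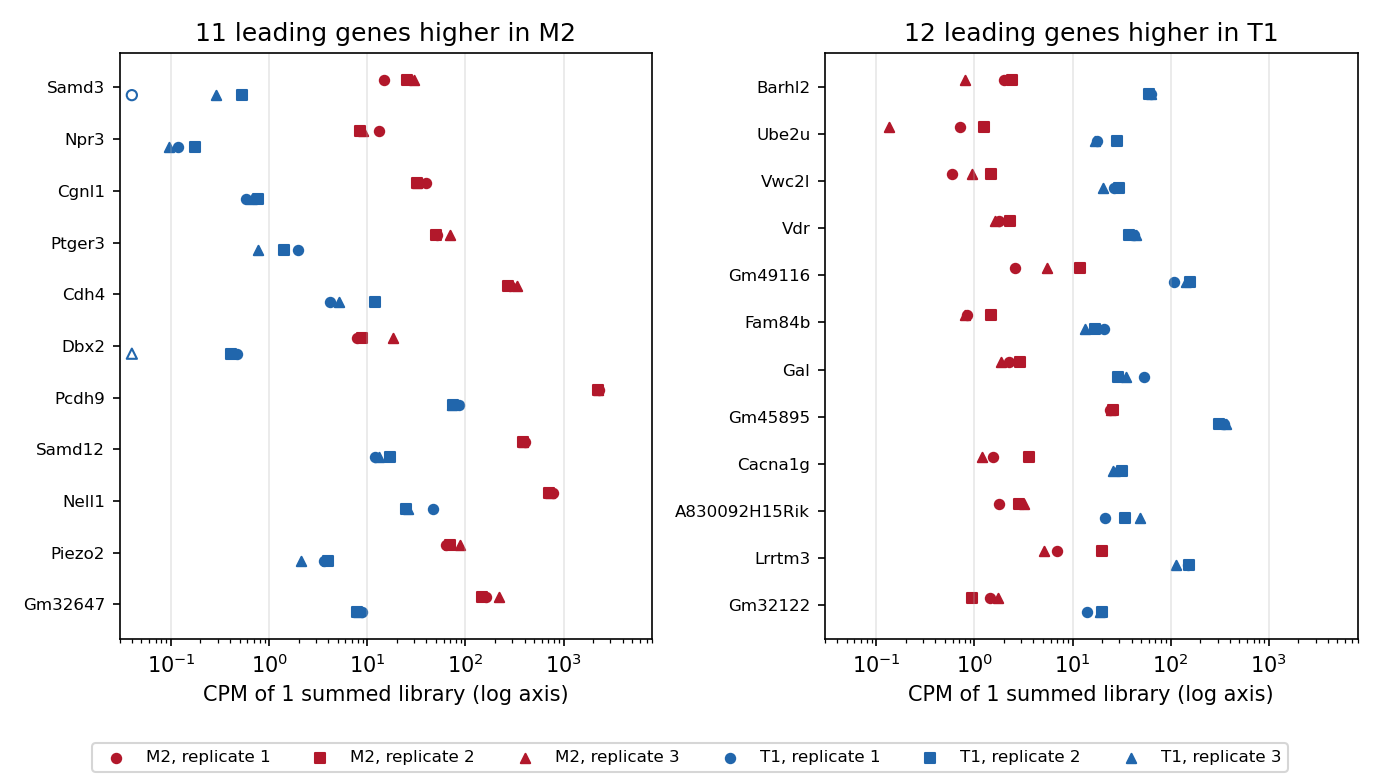
Level of 11 leading genes of M2 and 12 of T1 in each summed library, in CPM on a log axis, with red symbols for M2, blue symbols for T1 and 1 symbol shape per replicate; open symbols at the left edge are libraries with 0 UMIs. The genes were chosen for having no overlap between M2 and T1 libraries, and Samd3 and Dbx2 each have 1 T1 library at 0.

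The levels of 23 of these genes in the other named types of the series are given as a description, since a gene chosen for a high level in 1 type is likely to be high there among all types. Among 11 M2 genes, 5 were at their highest mean in M2 of the 7 named types, and among the 12 T1 genes 7 were at their highest in T1. Piezo2 was at 8.62 CPM in M1 and 29.1 CPM in M3, the other mitral types, and at 3.30, 2.46 and 1.35 CPM in the external tufted types ET1, ET2 and ET4, so that M3 came nearest. Samd3, in contrast, was higher in M1 (158 CPM), M3 (58.8 CPM) and ET2 (195 CPM) than in M2, and was near 0 in ET1 (0.329 CPM) and ET4 (0.799 CPM). Cdh4 reached 2948 CPM in ET4 and was above the T1 mean in all 5 other types. Barhl2 stayed between 1.85 and 10.6 CPM in the other types. Gm49116 (233 CPM) and A830092H15Rik (47.3 CPM) were at their highest in ET1, and Vwc2l was higher in ET1 (55.5 CPM) and ET4 (61.4 CPM) than in T1. These other levels are means of 3 libraries of smaller size, down to 161593 UMIs for the 14 M1 nuclei of replicate 1, and no test was made on them.

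**Figure D3:**
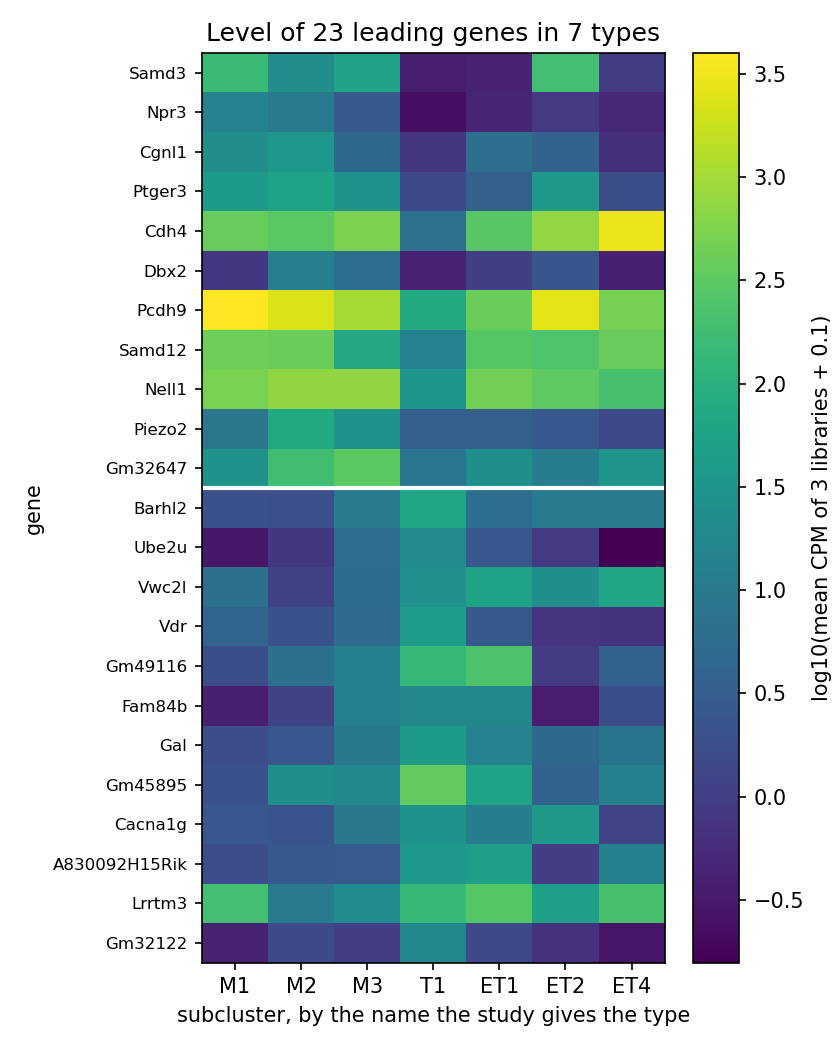
Level of 23 leading genes (rows, 11 M2 genes above the white line) in the 7 named types (columns), as log10 of the mean CPM of 3 libraries plus 0.1. The M2 genes are darker in T1 than in M1, M2 or M3, and several T1 genes are brightest in T1 or ET1.

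Bases upstream of the start site are shown for 3 leading genes, chosen after their values were seen, whose RefSeq start coincides with the annotated gene start and whose RNA was under 3 CPM in every library of the other type. Each run gives the 250 bases before the RefSeq start site (build GRCm38.p6), 5′ to 3′ on the gene's strand, with capitals for matches on either strand to the T-box element AGGTGTGA, the EBF element CCCNNGGG, the E-box forms CAGATG and CATATG, and the homeobox forms TAATTA and TAATTG.
Samd3 (chr10:26229457-26229706, plus strand): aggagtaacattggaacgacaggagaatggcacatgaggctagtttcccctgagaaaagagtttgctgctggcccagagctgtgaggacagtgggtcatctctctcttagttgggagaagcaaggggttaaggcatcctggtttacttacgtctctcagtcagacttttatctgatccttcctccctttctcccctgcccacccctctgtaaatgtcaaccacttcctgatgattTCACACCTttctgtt
Barhl2 (chr5:106458167-106458416, minus strand): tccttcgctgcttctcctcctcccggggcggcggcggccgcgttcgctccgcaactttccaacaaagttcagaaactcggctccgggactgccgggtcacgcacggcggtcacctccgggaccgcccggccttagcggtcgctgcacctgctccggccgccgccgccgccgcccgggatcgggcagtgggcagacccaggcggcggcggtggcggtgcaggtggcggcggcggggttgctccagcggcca
Gal (chr19:3414545-3414794, minus strand): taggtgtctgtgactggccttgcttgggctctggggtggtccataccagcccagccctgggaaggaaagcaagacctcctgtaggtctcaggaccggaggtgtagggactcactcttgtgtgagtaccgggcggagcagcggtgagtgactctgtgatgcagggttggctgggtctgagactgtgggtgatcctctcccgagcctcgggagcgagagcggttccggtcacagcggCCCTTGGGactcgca
Samd3 held 1 match, to the T-box element read on the other strand. Gal held 1 match, to the EBF element, and Barhl2 held none of the 6. The same window of Ptger3, Vgll2 and Vdr, not shown, was searched too and held no match. Over 27025 genes with a RefSeq promoter, 1.30% held the T-box element in this window, and over the tested genes 0.885%. It was held by 4 of 527 genes higher in M2 (0.759%) and 9 of 419 higher in T1 (2.15%). The EBF element was held by 13.4% of all, 18.1% of tested, 21.6% of M2 and 20.3% of T1 genes. These are matches of letters only, and they show neither binding nor a cause.

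Of 99 tested transcription regulators, 13 were higher in M2 and 12 in T1, or 25.3% called against 9.49% of all tested genes. Lhx9, a LIM homeobox gene, stood at 3.57, 3.99 and 5.49 CPM in M2 and 0, 0.118 and 0 CPM in T1 (adjusted p 1.2e-08). With 109 UMIs against 2, the ratio of shares was 77.2 (95% exact interval 20.9 to 645, counting error only). Thrb, the beta receptor for thyroid hormone, was at 41.7, 44.3 and 50.6 CPM in M2 and 5.96, 3.48 and 3.17 CPM in T1 (log2 fold change 3.52, SE 0.16, adjusted p 1.2e-12). Vgll2, a cofactor of TEAD proteins and 1 of the study's M2 genes, was at 33.4, 27.1 and 23.7 CPM in M2 and 4.91, 2.54 and 3.36 CPM in T1 (log2 fold change 3.05, SE 0.16, adjusted p 3.7e-13). Together with Barhl2 and Vdr these were the 5 largest changes of the list. Ebf1, which the study lists for M1, varied between mice, at 1.07, 34.7 and 11.8 CPM in M2 replicates 1, 2 and 3 and 1.05, 5.84 and 2.11 CPM in T1 (log2 fold change 2.39, SE 0.24, adjusted p 1.7e-07). Its libraries overlapped between the types and the call was lost without the mouse as a block (adjusted p 0.30). The M1 subcluster held 14, 465 and 207 nuclei in the same mice, which is the order of the Ebf1 levels, and whether M1 nuclei have a part in them was not tested.

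The study's lists for the other types were compared as well, beside 9.49% called of all tested genes. Of the 6 tested M1 genes 5 were higher in M2, among them Sertm1 (9.12 ± 1.22 against 0.436 ± 0.297 CPM, log2 fold change 4.28) and Nrp2 (47.5 ± 11.3 against 13.6 ± 1.05 CPM, 1.85), and 8 more were too low to test. Without replicate 2 the log2 fold change of Sertm1 was 4.98. The fifth was Cntn6, a contactin, at 10.2, 60.5 and 22.4 CPM in M2 and 7.01, 11.8 and 5.57 CPM in T1, with overlapping libraries (adjusted p 0.027, and 0.31 without replicate 3). Its call was also lost without the mouse as a block (adjusted p 0.18) and in a fit of 7 subclusters (0.062). Leaving out nuclei by inhibitory UMIs (0.070), by depth (0.081) or by coarse cluster (0.12) ended it as well. The whole M1 list summed to 73.3, 225 and 117 CPM in M2 replicates 1, 2 and 3 and 26.6, 48.4 and 34.1 CPM in T1. The number of M1 nuclei followed the same order of mice, and whether M1 nuclei have a part in these values was not tested. Of 3 tested M3 genes only Fst, a secreted binding protein of activins, was called, at 49.2, 59.99 and 72.7 CPM in M2 and 2.22, 3.83 and 2.40 CPM in T1 (log2 fold change 4.38, SE 0.14, adjusted p 9.6e-17). Of 7 ET1 genes 3 were higher in T1, namely Rxfp1, Clcf1 and Rorb. The call of Clcf1 was lost with DESeq2 (adjusted p 0.057) and without replicate 1 (0.054), and that of Rorb in a fit of 7 subclusters (0.10). Of 5 tested ET4 genes 1 was higher in M2 and 1 in T1, and the 1 tested ET2 gene was not called by edgeR or DESeq2 and had no unadjusted p under 0.05. The study chose these lists on these nuclei.

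Ion channels differed widely. Over 8 lists with 114 tested genes, 19 were higher in M2 and 11 in T1, or 26.3% called against 9.49% of all tested genes, with a median log2 fold change of 0.03. Of 32 voltage-gated potassium channels 7 were higher in M2 and 1 in T1. Kcnq3, a subunit of the M-current channels that damp repetitive firing, stood at 359.7, 362 and 321 CPM in M2 and 17.3, 30.4 and 19.8 CPM in T1 (log2 fold change 3.95, SE 0.16, adjusted p 6.5e-05). Kcnd3, a subunit of A-type channels, was at 279.8, 249 and 238 CPM in M2 and 74.8, 55.1 and 53.4 CPM in T1 (log2 fold change 2.12, SE 0.06, adjusted p 1.2e-17), and Kcnh5, an ether-a-go-go channel, at 145 ± 10.2 against 34.8 ± 5.41 CPM (log2 fold change 2.11). Kcng1, a modifier subunit and an M1 gene of the study, was at 11.2 ± 2.24 against 0.823 ± 0.313 CPM (3.76), and Kcna6 at 8.18 ± 0.361 against 0.922 ± 0.536 CPM (3.25). The exception was Kcna10, 1 of the study's T1 genes, whose level was under 2 CPM in every library (log2 fold change -1.88, adjusted p 0.0063) and which DESeq2 did not call. Without replicate 2 its log2 fold change was -2.72.

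Partners of these channels went in both directions. Kcnab1, a cytoplasmic beta subunit, was at 195, 156 and 161 CPM in M2 and 13.5, 17.7 and 11.7 CPM in T1 (log2 fold change 3.56, SE 0.13, adjusted p 1.9e-08). Kcnip4, which binds A-type channels, was at 1895, 2017 and 1561 CPM in M2 and 8848, 7307 and 7633 CPM in T1 (log2 fold change -2.09, SE 0.08, adjusted p 5.8e-09). Of 9 tested auxiliary subunits these were the 2 called, or 22.2% against 9.49% of all tested genes. Among other potassium channels the calcium-gated channel Kcnn2 was higher in M2, at 164, 127 and 120.3 against 27, 21.5 and 21 CPM (log2 fold change 2.60, SE 0.07, adjusted p 4.5e-18), as was Kcnmb4, a beta subunit of large-conductance channels (24.5 ± 1.66 against 4.14 ± 0.769 CPM, log2 fold change 2.56). Kcnj6, a G protein-gated inward rectifier, was higher in T1, at 5.48, 14.5 and 4.02 CPM in M2 and 45.4, 75.2 and 59.4 CPM in T1 (log2 fold change -2.87, SE 0.25, adjusted p 5.7e-04). The other 20 of 23 tested were not called, so that 13.0% were called.

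Of 4 tested HCN genes, pore subunits of the hyperpolarisation-activated current, 2 were higher in T1 (50% called), Hcn3 among them. Of 17 voltage-gated calcium channel genes 2 were higher in T1 and 1 in M2 (17.6% called), beside 9.49% of all tested genes. Hcn3 was at 28.8, 22.9 and 25.6 CPM in M2 and 57.8, 51.1 and 59.8 CPM in T1 (log2 fold change -1.09, SE 0.09, adjusted p 6.3e-10). Every T1 library of Hcn3 lay above every M2 library. Cacna1g, a low-threshold (T-type) calcium channel and 1 of the study's T1 genes (ENSMUSG00000020866, chromosome 11, 94408391 to 94474198, minus strand), was at 1.55, 3.57 and 1.21 CPM in M2 and 29.7, 32 and 26 CPM in T1 (log2 fold change -3.71, SE 0.19, adjusted p 3.4e-13). Its relative Cacna1i was at 1.78 ± 0.662 CPM in M2 and 4.58 ± 1.80 CPM in T1 (adjusted p 0.0012, and 0.069 without replicate 2). Cacna1e, a high-threshold channel of the R type, was higher in M2, at 391 ± 22 against 180.2 ± 13.5 CPM (log2 fold change 1.15, SE 0.05). Of 9 tested sodium channel genes 2 were called (22.2%), Scn3b and Nalcn, both higher in M2 with log2 fold changes of 1.04 and 1.01 that fell under 1 without replicate 3.

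Calcium entry and release showed opposite members. Itpr1, a release channel of the endoplasmic reticulum, stood at 127, 122 and 106 CPM in M2 and 11.6, 7.78 and 5.86 CPM in T1 (log2 fold change 3.89, SE 0.10, adjusted p 3.8e-18). Ryr1, a ryanodine receptor, was higher in T1, at 84.2, 71.3 and 68.2 CPM in M2 and 168, 180.0 and 191 CPM in T1 (log2 fold change -1.23, SE 0.08, adjusted p 7.3e-10). Of 15 TRP and Piezo channels 5 were higher in M2 and 3 in T1, or 53.3% called against 9.49% of all tested genes. Trpc5, a receptor-operated cation channel, was at 100.3, 81.3 and 71.7 CPM in M2 and 11.2, 8.90 and 7.30 CPM in T1 (log2 fold change 3.24, SE 0.09, adjusted p 9.4e-18), whereas its relative Trpc4 was at 2.38, 7.46 and 1.74 CPM in M2 and 14.1, 17.9 and 16.5 CPM in T1 (log2 fold change -2.02, SE 0.31, adjusted p 0.0011, and -2.82 without replicate 2). Piezo1 went the opposite way from Piezo2, at 0.975 ± 0.520 CPM in M2 and 4.97 ± 0.534 CPM in T1 (log2 fold change -2.31).

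**Figure D4:**
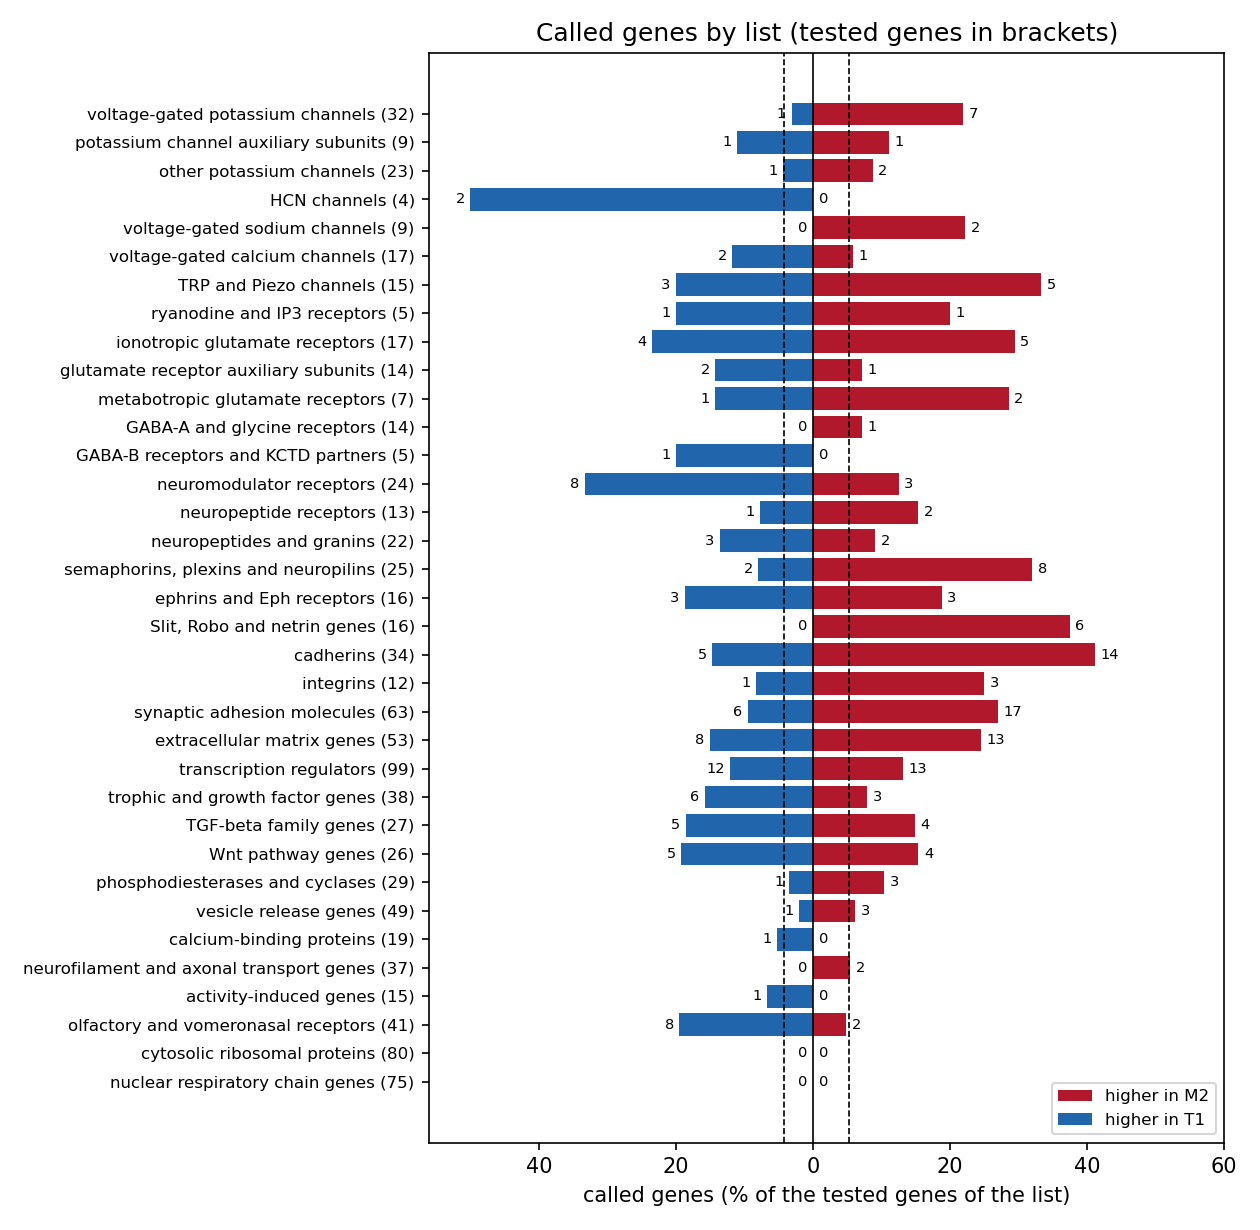
Called genes of the lists of gene families and pathways as a percentage of its tested genes, to the right for genes higher in M2 and to the left for genes higher in T1, with the number called at the end of each bar and dashed lines at the shares over all tested genes (5.29% and 4.21%). Among the lists drawn, cadherins and Slit, Robo and netrin genes reach furthest to the right and ribosomal and respiratory chain genes have no bar.

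Transmitter receptors were divided by subunit. Over 7 lists with 94 tested genes, 14 were higher in M2 and 17 in T1, or 33.0% called against 9.49% of all tested genes. Among 17 ionotropic glutamate receptors 5 were higher in M2 and 4 in T1. Gria1, a subunit of AMPA receptors, stood at 728, 650.2 and 627 CPM in M2 and 95.5, 109 and 78.6 CPM in T1 (log2 fold change 2.86, SE 0.07, adjusted p 1.6e-12). Gria4, another AMPA subunit, had the reverse order, at 1078, 1458 and 1169 CPM in M2 and 4318, 5417 and 4781 CPM in T1 (log2 fold change -1.94, SE 0.05, adjusted p 4.1e-19). Kainate receptor genes were split as well, with Grik2 higher in M2 (50.6 ± 4.86 against 21.4 ± 5.86 CPM) and Grik4 higher in T1 (0.826 ± 0.216 against 2.99 ± 0.908 CPM). Of the auxiliary subunits Neto2, of kainate receptors, was higher in M2 (246 ± 29.9 against 83 ± 4.58 CPM, log2 fold change 1.60), and Cnih3 (14.8 ± 2.85 against 60.4 ± 10.8 CPM, -1.96) and Shisa9 (248 ± 31.3 against 758 ± 13 CPM, -1.58), of AMPA receptors, in T1. Metabotropic receptors gave Grm3 and Grm8 higher in M2 (log2 fold changes 1.56 and 1.23) and Grm4 higher in T1 (-1.53).

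Of 14 tested GABA-A and glycine receptor genes 1 was called, a share of 7.14% below the 9.49% of all tested genes. Gabrb1, a beta subunit of GABA-A receptors, stood at 989, 1089 and 1096 CPM in M2 and 102, 129.9 and 119 CPM in T1 (log2 fold change 3.21, SE 0.05, adjusted p 8.0e-22). It was the single gene called in this list both by edgeR and by DESeq2, with 5 genes in each direction at an unadjusted p under 0.05. Gabrb2 was at 1039 ± 62.5 CPM in M2 and 1475 ± 115 CPM in T1. Of the GABA-B receptors and their KCTD partners, Kctd16 was called higher in T1, at 13, 34.6 and 44.9 CPM in M2 and 264, 367 and 332 CPM in T1 (log2 fold change -3.40, SE 0.34, adjusted p 0.019). Libraries did not overlap, but the call was lost without replicate 2 (adjusted p 0.19) and without the filter on low counts (adjusted p 0.052).

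Of 24 tested receptors for modulators 8 were higher in T1 and 3 in M2, or 45.8% called against 9.49% of all tested genes. Chrna3 and Chrnb4, nicotinic acetylcholine receptor subunits that assemble with each other and whose genes are neighbours on chromosome 9, were the leading M2 genes. Chrna3 was at 12, 15.2 and 16.3 CPM in M2 and 1.28, 0.943 and 0.192 CPM in T1 (log2 fold change 4.20, SE 0.30, adjusted p 3.4e-10), and Chrnb4 at 6.08, 3.68 and 5.49 and 0.584, 0.295 and 0.481 CPM (log2 fold change 3.51, SE 0.36, adjusted p 4.1e-08). On the T1 side were receptors for histamine and serotonin. Hrh3 was at 5.00, 3.99 and 3.89 CPM in M2 and 22.3, 19.1 and 18.5 CPM in T1 (log2 fold change -2.18, SE 0.16, adjusted p 1.1e-10). Htr5a was at 4.77, 7.35 and 4.96 CPM in M2 and 29.7, 24.6 and 24 CPM in T1 (log2 fold change -2.14, SE 0.16, adjusted p 1.6e-10), and Htr5b at 1.44 ± 0.206 and 6.59 ± 0.454 CPM (log2 fold change -2.13). Hrh2, the adrenergic receptors Adra1a, Adrb1 and Adra2c, and the dopamine receptor Drd1 were also higher in T1, and Adra1b was higher in M2.

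Of 22 tested neuropeptide genes 2 were higher in M2 and 3 in T1, or 22.7% called against 9.49% of all tested genes. Besides Gal, T1 libraries were higher in Cck, the precursor of cholecystokinin and a classical tufted cell peptide, at 123, 134 and 105 CPM in M2 and 795, 586 and 684 CPM in T1 (log2 fold change -2.46, SE 0.14, adjusted p 3.8e-04). Pdyn, the dynorphin precursor, was at 0.0747 ± 0.0651 CPM in M2 and 2.13 ± 0.496 CPM in T1 (adjusted p 7.8e-06), with 2 UMIs against 76 and a T1 over M2 ratio of shares of 26.8 (95% exact interval 7.18 to 226, counting error only). M2 libraries were higher in Nts, the neurotensin precursor and 1 of the study's M2 genes, at 8.94, 8.51 and 6.56 CPM in M2 and 1.05, 0.884 and 0.673 CPM in T1 (log2 fold change 3.23, SE 0.28, adjusted p 2.6e-09), and in Crh, the precursor of corticotropin-releasing hormone (8.25 ± 2.74 against 3.28 ± 2.11 CPM, log2 fold change 1.46). The other 17 were not called. Of 13 peptide receptors, Oprm1, the mu opioid receptor (14.3 ± 1.84 against 3.96 ± 1.01 CPM, 1.87), and Ntsr2 were higher in M2, the latter not without replicate 3. Rxfp1, a relaxin receptor, was higher in T1, at 9.41, 6.41 and 2.81 CPM in M2 and 81.6, 53.5 and 45.4 CPM in T1 (log2 fold change -3.23, SE 0.13, adjusted p 4.1e-15).

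**Figure D5:**
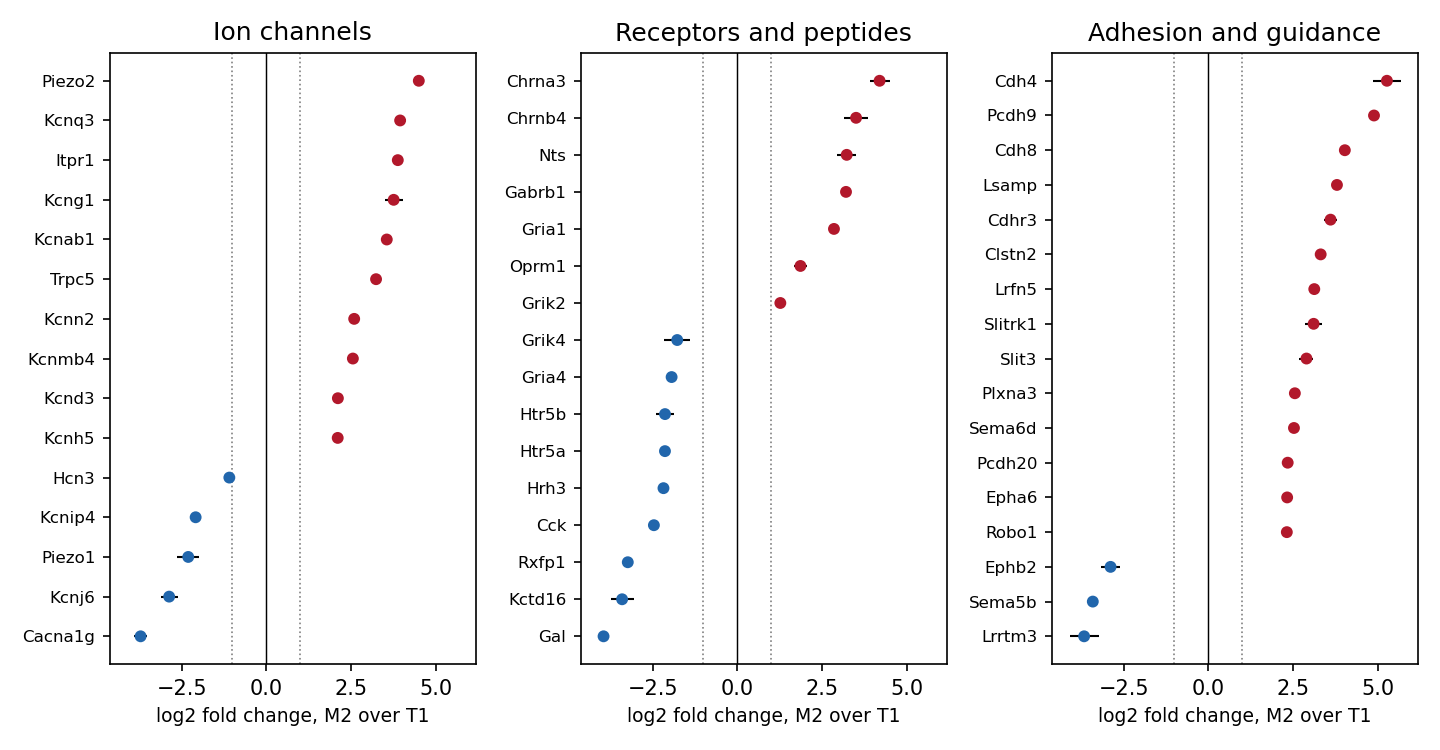
Log2 fold change of M2 over T1 with its standard error for called genes of the channel lists (left), the receptor and peptide lists (middle) and the adhesion and guidance lists (right), chosen among the 5 leading genes of each list. Red points are higher in M2, blue points higher in T1, dotted lines mark log2 fold changes of -1 and 1, and relatives such as Piezo1 and Piezo2 or Gria1 and Gria4 lie on opposite sides.

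Adhesion and guidance genes had more calls in M2 than in T1, as had all tested genes (5.29% against 4.21%). Over 4 lists of adhesion and matrix genes with 162 tested, 47 were higher in M2 and 20 in T1 (41.4% called against 9.49% of all tested genes), and over 3 lists of guidance genes with 57 tested, 17 were higher in M2 and 5 in T1 (38.6%). Of 34 cadherins and protocadherins 14 were higher in M2 and 5 in T1. Cdh8 was at 225, 225 and 246 CPM in M2 and 16.6, 13 and 14.5 CPM in T1 (log2 fold change 4.03, SE 0.07, adjusted p 4.4e-21), Cdhr3 at 25.7 ± 2.44 and 2.04 ± 0.719 CPM (log2 fold change 3.61) and Pcdh20 at 24.9 ± 6.44 and 5.03 ± 0.408 CPM (2.35). With Pcdh9 and Cdh4 these were the 5 largest changes, all higher in M2. Among 63 synaptic adhesion genes 17 were higher in M2 and 6 in T1. Lsamp, a GPI-anchored protein of the limbic system, was at 2323, 2285 and 2278 CPM in M2 and 169.9, 185 and 152 CPM in T1 (log2 fold change 3.80, SE 0.06, adjusted p 1.9e-22). Clstn2, a calsyntenin, was at 1174, 1088 and 1049 CPM in M2 and 117, 108 and 114 CPM in T1 (log2 fold change 3.32, SE 0.05, adjusted p 2.2e-22), and Lrfn5, a leucine-rich repeat protein, at 629 ± 35.3 and 73.5 ± 2.18 CPM (3.13).

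Of 25 semaphorins, plexins and neuropilins, 8 were higher in M2 and 2 in T1, or 40% called against 9.49% of all tested genes. Sema5b, a transmembrane semaphorin, was the largest change and was higher in T1, at 28.8, 33.7 and 21.6 CPM in M2 and 303, 304 and 317 CPM in T1 (log2 fold change -3.41, SE 0.11, adjusted p 4.5e-09). Sema6d, 1 of the study's M2 genes, was at 487, 438 and 506 CPM in M2 and 83, 83.5 and 85.9 CPM in T1 (log2 fold change 2.53, SE 0.05, adjusted p 4.8e-20). The receptors Plxna3 (38 ± 7.25 against 6.53 ± 1.13 CPM, log2 fold change 2.56) and Plxnc1 (60.4 ± 6.17 against 12.5 ± 2.15 CPM, 2.32) were higher in M2, as was the ligand Sema3e (117 ± 10.00 against 28.9 ± 3.50 CPM, 2.07). Slit, Robo and netrin genes had 6 of 16 higher in M2 and 0 in T1 by edgeR and by DESeq2, with 3 at an unadjusted p under 0.05 in the T1 direction. Slit3, a repellent ligand, was at 17.8, 13.7 and 11.5 CPM in M2 and 1.75, 2.24 and 1.63 CPM in T1 (log2 fold change 2.90, SE 0.21, adjusted p 1.2e-10), and Robo1, a receptor for Slit ligands, at 2399.9, 2223 and 2153 CPM in M2 and 585, 409 and 416 CPM in T1 (log2 fold change 2.32, SE 0.07, adjusted p 6.9e-13). Dcc, a netrin receptor, was at 1429.6 ± 174 against 372 ± 24.1 CPM (1.97) and Ntng1, a membrane-bound netrin, at 5665 ± 244 against 1616 ± 9.37 CPM (1.84). Eph receptors and ephrins were even, 3 in each direction of 16, with Epha6 higher in M2 (805 ± 38.5 against 166 ± 27 CPM, 2.33) and Ephb2 higher in T1 (1.33 ± 0.540 against 9.88 ± 1.23 CPM, -2.89).

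Matrix and secreted factors followed. Of 53 matrix genes 13 were higher in M2 and 8 in T1. Gpc6, a heparan sulfate proteoglycan, stood at 395, 401 and 441 CPM in M2 and 21.1, 24.3 and 23 CPM in T1 (log2 fold change 4.20, SE 0.06, adjusted p 2.1e-22). The basement membrane genes Lama4 (54 ± 3.02 against 4.41 ± 0.953 CPM, log2 fold change 3.67), Col4a1 (9.26 ± 0.531 against 0.913 ± 0.228 CPM, 3.37) and Col4a2 (20.4 ± 2.02 against 2.32 ± 0.292 CPM, 3.11) were higher in M2. Vascular cells also make these, and the vascular markers summed to 6.70 to 8.46 CPM in M2 and 30.9 to 33.3 CPM in T1, or 5.09 to 5.72 and 6.54 to 8.76 CPM without Pdgfrb. Their part in these values was not tested. Of 38 trophic and growth factor genes 6 were higher in T1 and 3 in M2, or 23.7% called against 9.49% of all tested genes, with 4 and 3 by DESeq2. Pdgfrb, a growth factor receptor that is also 1 of the vascular markers, was at 2.74, 2.73 and 1.61 CPM in M2 and 24.5, 24.3 and 23.1 CPM in T1 (log2 fold change -3.29, SE 0.17, adjusted p 6.9e-13). In the Wnt pathway 4 of 26 were higher in M2 and 5 in T1 (34.6% called), among them the antagonist Dkk3 (1.95 ± 1.02 against 23.1 ± 9.55 CPM, log2 fold change -3.55) and the receptor Ror1 (4.99 ± 0.325 against 55.1 ± 4.62 CPM, -3.44) in T1. Of 27 TGF-beta family genes 4 were higher in M2 and 5 in T1 (33.3% called), with 4 and 3 by DESeq2.

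Receptor genes of the nose appeared on the T1 side as a block. Of 1419 olfactory and vomeronasal receptor genes 41 were abundant enough to test, and 8 were higher in T1 and 2 in M2, or 24.4% called against 9.49% of all tested genes. The 6 neighbours Olfr110, Olfr111, Olfr112, Olfr113, Olfr114 and Olfr115 on chromosome 17 (37492468 to 37627109) were all among the 8. Olfr111 was at 218, 246 and 154 CPM in M2 and 1469, 1506 and 1457 CPM in T1 (log2 fold change -2.82, SE 0.15, adjusted p 5.1e-04). Olfr115 was at 67.8, 70.3 and 56.8 CPM in M2 and 432, 409 and 506 CPM in T1 (log2 fold change -2.74, SE 0.12, adjusted p 8.2e-06), and Olfr112 at 55.4, 66.3 and 39.4 CPM and 363, 402 and 417 CPM (log2 fold change -2.84, SE 0.20, adjusted p 0.0031). The log2 fold changes of the 6 lay between -3.27 and -2.73. These genes are similar in sequence, so that the split of reads among them is uncertain. An Olfr111 UMI was found in 94.4% of T1 and 21.7% of M2 nuclei at 5000 UMIs, with 1.47% in inhibitory cluster 0. The longest run of adjacent tested genes called the same way held 7 genes higher in M2, from Tenm3 to C130073E24Rik on chromosome 8 (48227682 to 50916997). In all 47 such runs held at least 3 genes. No number of runs to be had without regard to position was computed. Some runs join a gene with transcripts named as its antisense, such as Sox5 with Sox5os2, Sox5os3 and Sox5os4.

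Lists of ribosomal and respiratory chain genes held no calls, and vesicle release genes were called at a share near that of all tested genes. None of 80 ribosomal protein genes was called by edgeR or DESeq2, but 7 alone had a positive log2 fold change (median -0.23) and 41 had an unadjusted p under 0.05 on the T1 side, against 0 on the M2 side. Nuclear genes of the respiratory chain were similar, with 0 of 75 called by either tool, a median of -0.19, and 36 at an unadjusted p under 0.05 on the T1 side and 3 on the M2 side. Median mitochondrial shares of UMIs were 0.0275%, 0.039% and 0.02% in M2 nuclei and 0.035%, 0.046% and 0.023% in T1 nuclei. Whether RNA from the cytoplasm has a part in these values was not tested. Of 49 genes of vesicle release 3 were higher in M2 and 1 in T1, a share of 8.16% near the 9.49% of all tested genes. Syn2, a synapsin, was higher in M2 (272 ± 10.9 against 85.3 ± 6.42 CPM, log2 fold change 1.71) and Cplx3, a complexin, in T1 (0, 0.315 and 0.134 CPM in M2, 5.84, 3.48 and 4.13 CPM in T1, log2 fold change -4.66, or -3.91 without replicate 1 and -5.97 without replicate 2). Of 19 tested calcium-binding proteins edgeR called Necab2 alone, higher in T1 (1.43 ± 0.309 against 11.6 ± 2.64 CPM, -2.94).

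The most abundant RNAs set the scale of these shares. Malat1, a nuclear noncoding RNA, took 8.46%, 8.21% and 9.22% of UMIs in M2 replicates 1, 2 and 3 and 7.21%, 7.49% and 8.27% in T1. Galntl6, a glycosyltransferase gene, took 1.56% ± 0.0234 of UMIs in M2 and 0.593% ± 0.0490 in T1 (mean ± SD, n = 3), the most abundant of the called genes in M2. Kcnip4 held that place in T1, at 0.793% ± 0.0812 against 0.182% ± 0.0236 in M2. Called genes were long, with a median annotated span of 46842 bases in M2 and 43916 bases in T1 against 27120 bases over all tested genes with a position.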

How the data were processed

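Single nuclei of 3 olfactory bulbs were profiled, 1 library per mouse. Values were raw UMI counts per gene and nucleus, deposited as made by Cell Ranger 3.0.2 (per the file headers) on GRCm38/mm10 (per the labels' processing notes). The authors also deposited, per nucleus, cluster numbers (other values, used as labels) and the percent of mitochondrial UMIs. Whether intronic reads and strand were counted is not given in the sources used here. Of the deposited per-nucleus values, 6 columns were not used, which hold map coordinates and totals after the study's normalization. The study's filters on nuclei were kept, and no doublet caller was run. The study tested single-nucleus data with glmGamPoi. Here counts were summed per mouse and subcluster, and genes were tested with edgeR 4.0.16 in R 4.3.3 (filterByExpr, TMM scaling, robust quasi-likelihood fit, mouse as a block) with Benjamini-Hochberg adjustment. Calls required an adjusted p below 0.05 and a log2 fold change beyond -1 or 1. CPM used the summed UMIs without TMM. A positive log2 fold change is higher in M2, and its SE is the fold change divided by the root of the F statistic. Each mouse gave both types, so the block is given by the design. Deviations from the mean of each type correlated between types at 0.25, 0.38 and 0.22 for the same mouse, and at -0.23 to -0.03 for different mice. Because of this centring, positive values for the same mouse make those of different mice negative on average, so the latter add no separate information. Nothing in the labels speaks of replicates beyond 1 library per mouse. With the mouse as a block, p-values measure how the difference between M2 and T1 varies over 3 mice, not the spread of levels between mice. Depth was 7464540 to 16961469 UMIs per summed library.

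Named were the 12 called genes of each direction with the largest fold change, no overlap between libraries and a mean of at least 10 CPM in the higher subcluster, and up to 5 called genes of each list by absolute fold change; some items are not reported here. Members and lists were chosen with earlier results of these data known. Gene positions came from GENCODE M21, in which 31011 of 31055 identifiers were found, 30541 with the same symbol. For shares of nuclei with a UMI, nuclei were thinned to 5000 UMIs and shallower ones left out. The fits were tested on simulated data. Alternatives were no block, other scalings and filters, DESeq2 1.42.0, a fit of 7 subclusters, leaving out each replicate, thinning, and leaving out nuclei with at least 2 UMIs of inhibitory markers, the 5% deepest nuclei, or nuclei outside the most common coarse cluster.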

Additional observations from a re-analysis of the deposited data

How the results depend on the processing

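Counts of called genes stayed within 1.5 times the main 779 (M2) and 620 (T1) in all alternatives run but 1. With a filter at 10 CPM they were 384 and 299, since 402 and 315 of the called genes were then not tested. Leaving out each replicate in turn gave 762 to 820 genes in M2 and 599 to 630 in T1. Without the replicate block they were 731 and 580, and with DESeq2 665 and 526. Thinning each nucleus to 5000 UMIs gave 556 and 437, with 262 and 204 of the called genes not tested. No called gene changed direction in any of these fits. Of 156 genes named by rule or leading a list, 22 lost their call in at least 1 alternative that tested them, 18 of them when a replicate was left out. Alternatives in which a gene was not tested, such as Npr3 with the filter at 10 CPM, were not counted as a loss. Without the replicate block Ebf1, Cntn6 and Nr4a3 were at adjusted p 0.30, 0.18 and 0.31, and the cause was not tested. The ratio of median UMIs per nucleus was 1.32 to 1.34 with a replicate left out. Depth limits genes under about 1 CPM, such as Lhx9 with 2 UMIs in all T1 nuclei.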

Other observations

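Several genes and their neighbours on the chromosome were called together. Kcnq3 and its neighbours Gm27153 and Lrrc6 on chromosome 15 (65986387 to 66500910) were all higher in M2, and so were Col4a1, Col4a2 and Gm15418 on chromosome 8 (11187755 to 11449287). Trpc5, Trpc5os and Rtl4 on chromosome X (144381671 to 145122411) formed a further M2 group. On the T1 side Gm45895, Gm32005 and Gm32122 lay together on chromosome 8 (95910574 to 96403862). These examples were chosen after their values were seen, and reads of overlapping genes cannot be told apart where strand was not used. Whether neighbours were called together more often than other genes was not tested.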
